A study of Mus musculus with 12 samples.

Results

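The EGF family ligands and the ErbB receptors were followed across cultured mouse type II alveolar epithelial cells, which make the lung's surfactant, labelled as knockouts of G protein alpha subunits. The set comprised 9 genes, namely the 6 ligands Areg, Ereg, Hbegf, Tgfa, Btc and Nrg1 and the 3 receptors Egfr, Erbb2 and Erbb3. Its members were all probe sets of an Affymetrix mouse array that the platform annotation assigned to 1 of these genes alone. That gave 19 of the 45037 non-control probe sets and 8 of the 18193 genes measured, because no probe set was listed for Areg in the annotation used here, and its level is not analysed here. Of the ligands, 5 of 6 were therefore measured.

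The 12 arrays fell into 4 genotype groups of 3 replicates, namely cells lacking Gnaq and Gna11, cells lacking Gna11, cells lacking Gna12 and Gna13, and cells lacking Gna12. Both groups of the Gnaq/Gna11 pair thus lacked Gna11, and both groups of the Gna12/Gna13 pair lacked Gna12, so each double knockout was set against a single knockout and no wild-type cells are analysed here. All cells came from lung and were cultured without further treatment for 7 days on collagen in a medium for bronchial epithelium that held keratinocyte growth factor but no hydrocortisone, with fresh medium every 3 days. From each, 10 ng of total RNA was amplified and labelled with biotin. The sources used here do not give mouse strain, age, the way in which each gene was deleted or the cells it was deleted in. They do not say either whether replicates came from separate animals, so the spread behind each p-value is that between these samples and may be partly technical.

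EGF family ligands are made as membrane-anchored precursors that metalloproteases of the ADAM family cut free, and the released ligand binds ErbB receptors on the same or neighbouring cells. Hbegf, Tgfa, Areg, Ereg and Btc bind Egfr, and Nrg1 binds Erbb3, which signals mainly through its partner Erbb2. Receptors coupled to Gq/11 or G12/13 can activate Egfr by way of this shedding step, and in the lung ErbB signalling takes part in alveolar epithelial growth and repair.

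The deposited values were log2 expression values per probe set made with RMA, a method that corrects background, normalizes between arrays and summarises probes. Array medians lay between 5.03 and 5.11, and those of the Gna11 arrays, 5.0985 to 5.1095, were the highest. The level of 1 probe set cannot be set against that of another, so each is described against itself. All 11 measured type II markers, Sftpc, Sftpb and Abca3 among them, had means above the median of probe sets, and so did all 9 measured general epithelial markers. But 10 of 10 type I alveolar, 7 of 8 airway, 17 of 18 pan-leukocyte and 12 of 12 macrophage markers did too. The same held for 4 of 7 dendritic, 5 of 8 fibroblast and 4 of 6 endothelial markers. The mean of the pan-leukocyte markers ranged from 9.35 to 9.48 in Gnaq/Gna11 cells, against 8.33 to 8.98 in Gna11 cells, and from 9.16 to 9.96 in Gna12/Gna13 cells, against 9.53 to 10.10 in Gna12 cells. In bulk RNA of this kind, fewer cells of a type and less RNA per cell cannot be told apart. Of the probe sets of the targeted genes, 1 of 7 for Gnaq, 1 of 2 for Gna11, 1 of 5 for Gna12 and 1 of 7 for Gna13 was lower in every array labelled as its knockout than in every other array. The other probe sets overlapped, and some were level or higher on average in the knockout arrays, as the second Gna11 probe set was at 7.84 ± 1.02 in arrays lacking Gna11 (n = 6) and 7.72 ± 0.386 in the others (n = 6). The Y-linked gene Eif2s3y was between 3.32 and 3.54 in Gnaq/Gna11 cells, and in the Gna11, Gna12/Gna13 and Gna12 cells it was low in replicate 2, at 3.56, 3.07 and 3.30, and at 6.91 or more in the others. The 3' minus 5' signal of the Gapdh control probe sets, a sign of RNA quality and of amplification, ranged from 3.01 to 3.26 in Gnaq/Gna11 cells, against 3.46 to 4.03 in Gna11 cells, without overlap, and from 2.99 to 3.33 in Gna12/Gna13 cells, against 2.67 to 3.25 in Gna12 cells. A position code in the labels, whose meaning the sources used here do not give, has the letters B, C and D in both single knockouts and E, F and G in both double knockouts, and its number is 2 in both Gna11-deficient and 4 in both Gna12-deficient groups. Position therefore cannot be told apart from genotype in any comparison of 1 group with another here.

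No member of the family passed the test in any comparison of genotypes. For the effect of losing Gnaq beside Gna11, 0 of 8 members had an adjusted p under 0.05 (limma, Benjamini-Hochberg over all genes), where 1.84% of all genes did. For the loss of Gna13 beside Gna12 it was 0 of 8 members, where 0% of all genes did. For the difference between these differences it was 0 of 8 members, where 0.0715% of all genes did. For Gna12 against Gna11 cells it was 0 of 8 members, where 2.82% of all genes did, and in the F test over the 4 genotypes it was 0 of 8 members, where 6.85% of all genes did. At an unadjusted p under 0.05 there was 1 member, Nrg1, for Gnaq/Gna11 against Gna11, where 16.2% of genes reached that level. There was likewise 1, Ereg, for Gna12 against Gna11, where 20.9% of genes did, and none in the Gna12/Gna13 comparison (4.51% of genes), in the difference of differences (10.8%) or in the F test (25.8%). An adjusted p above the threshold does not show that the genotypes were alike, so the intervals of the differences are given with each gene.

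**Figure D1:**
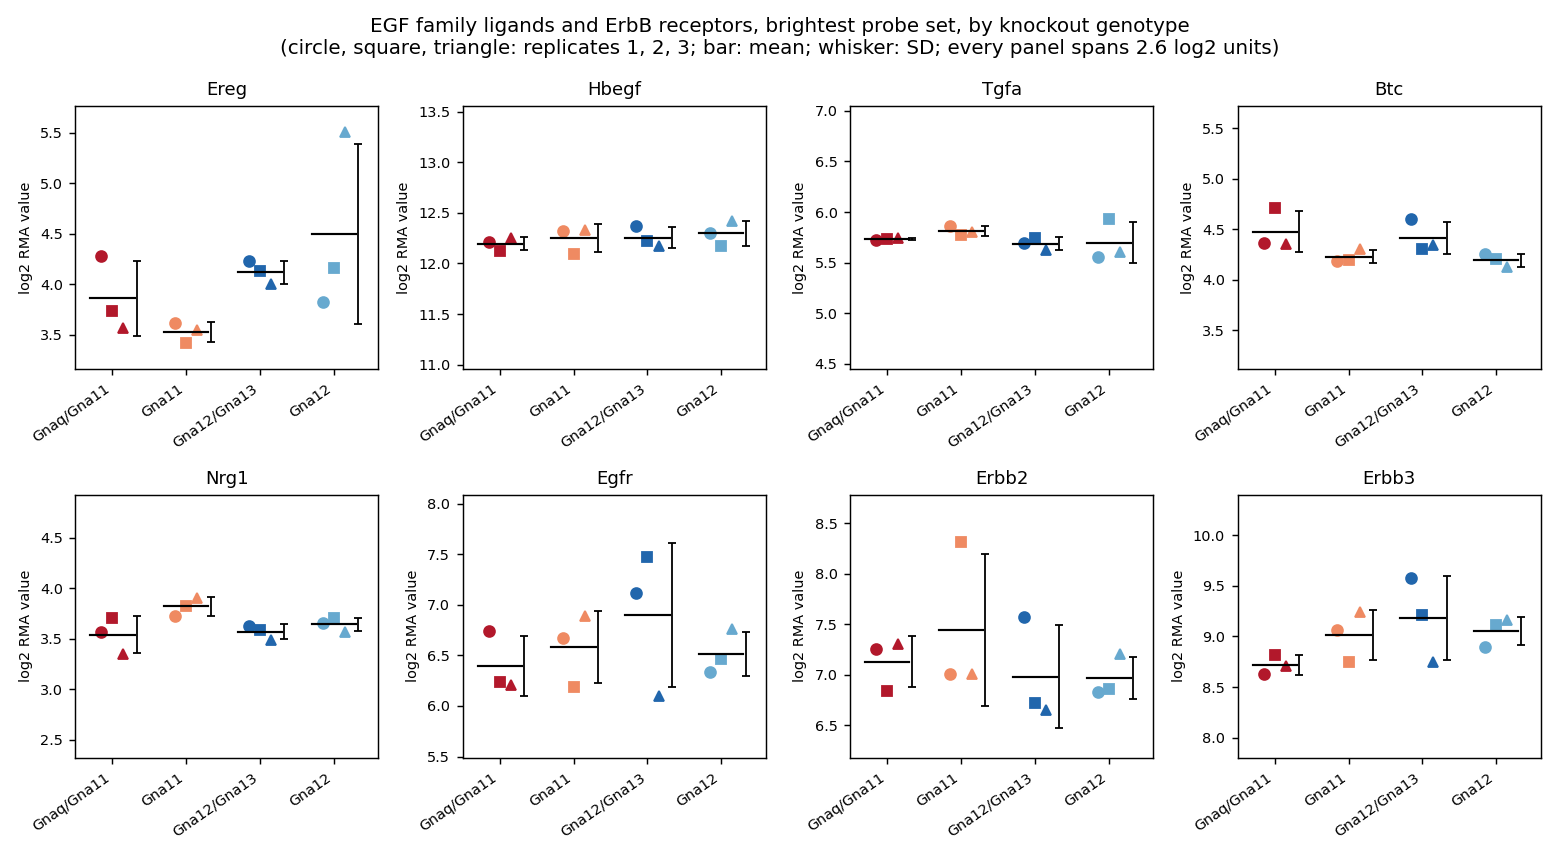
Log2 RMA value of the brightest probe set of each measured EGF family ligand (Ereg, Hbegf, Tgfa, Btc, Nrg1) and ErbB receptor (Egfr, Erbb2, Erbb3) in the 4 knockout genotypes, with 1 symbol per array, the group mean as a bar and the SD as a whisker (n = 3). Hbegf stays within a range of 0.33 over the 12 arrays, while 1 Gna12 array stands at 5.51 for Ereg and 1 Gna11 array at 8.31 for Erbb2.

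Hbegf, a heparin-binding ligand of Egfr and Erbb4, had the smallest standard errors of the members, and its arrays overlapped across all 4 genotypes. Its values were 12.21, 12.12 and 12.25 in Gnaq/Gna11 cells, against 12.32, 12.09 and 12.34 in Gna11 cells. In Gna12/Gna13 cells they were 12.38, 12.22 and 12.17, against 12.30, 12.18 and 12.42 in Gna12 cells. No group stood above or below the rest. The Gnaq/Gna11 minus Gna11 difference was -0.05 ± 0.0853 (log2, SE) with a 95% interval from -0.24 to 0.13, that is a fold between 0.846 and 1.10, and an adjusted p of 0.808. The Gna12/Gna13 minus Gna12 difference was -0.04 with an interval from -0.23 to 0.15, a fold between 0.853 and 1.11. Folds in the signal of this probe set below 0.846 or above 1.11 lay outside both unadjusted intervals. The probe set was at percentile 98.9 of all probe sets by mean, and how closely its signal follows mRNA at that level was not tested. The SD of Hbegf over the 12 arrays was 0.102. Among the 452 genes with a mean within 0.5 log2 units of Hbegf, this SD was at percentile 36.4, so a small spread was usual at this signal. The second Hbegf probe set, 1418349_at, averaged 10.39 ± 0.036 in Gnaq/Gna11 cells and 10.33 ± 0.157 in Gna11 cells (SD, n = 3 each), and 10.44 ± 0.053 in Gna12/Gna13 cells and 10.45 ± 0.153 in Gna12 cells. Its Gnaq/Gna11 minus Gna11 difference was 0.07, of opposite sign to that of the first probe set, and neither exceeded its error.

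Tgfa, which binds Egfr alone, was measured by 3 probe sets. The first, 1450421_at, read 5.72, 5.73 and 5.74 in Gnaq/Gna11 cells, against 5.87, 5.77 and 5.81 in Gna11 cells, so every Gnaq/Gna11 array lay below every Gna11 array by a small margin. In Gna12/Gna13 cells it read 5.70, 5.75 and 5.62, against 5.56, 5.93 and 5.60 in Gna12 cells, and these groups overlapped. The differences were -0.08 with an interval from -0.37 to 0.21 for Gnaq/Gna11 minus Gna11 (adjusted p 0.817) and -0.01 for Gna12/Gna13 minus Gna12. All 3 probe sets had a negative Gnaq/Gna11 minus Gna11 difference, between -0.20 and -0.03, and none passed. They parted for Gna12 minus Gna11, where the first differed by -0.12. Probe set 1421942_s_at averaged 5.62 ± 0.127 in Gna12 cells and 5.98 ± 0.215 in Gna11 cells, with all Gna12 arrays below all Gna11 arrays, whereas 1421943_at averaged 5.53 ± 0.349 in Gna12 cells and 5.30 ± 0.431 in Gna11 cells.

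Ereg, a ligand of Egfr and Erbb4, lay near the low end of the array and varied most among the ligands. It read 4.28, 3.73 and 3.57 in Gnaq/Gna11 cells, against 3.62, 3.42 and 3.55 in Gna11 cells. In Gna12/Gna13 cells it read 4.23, 4.13 and 4.004, against 3.82, 4.16 and 5.51 in Gna12 cells. The last of these, Gna12 replicate 3, was the only array in which Ereg reached the array median, and the next highest of the 12 was 4.28. All Gna12 arrays lay above all Gna11 arrays, with a difference of 0.97 ± 0.344 (interval 0.21 to 1.72, a fold between 1.16 and 3.30) at p 0.0166 and an adjusted p of 0.144 by limma. Without Gna12 replicate 3 this difference was 0.46 (adjusted p 0.244). For Gna12/Gna13 minus Gna12 the difference was -0.37, and without Gna12 replicate 3 it turned to 0.13. For Gnaq/Gna11 minus Gna11 it was 0.33 with an interval from -0.42 to 1.09, and 0.12 without Gnaq/Gna11 replicate 1. The pan-leukocyte mean was 9.90 ± 0.315 in Gna12 cells and 8.65 ± 0.325 in Gna11 cells, and adjusted for it the Gna12 minus Gna11 difference of Ereg was 1.83 (adjusted p 0.822). These groups did not overlap in that mean, so the adjusted fit could hardly separate it from genotype.

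Btc, which binds Egfr and Erbb4, and Nrg1, the neuregulin that binds Erbb3 and Erbb4, stayed below the array median in all 12 arrays. Btc probe set 1435541_at read 4.36, 4.71 and 4.35 in Gnaq/Gna11 cells, against 4.19, 4.20 and 4.30 in Gna11 cells. It read 4.60, 4.31 and 4.34 in Gna12/Gna13 cells, against 4.25, 4.20 and 4.12 in Gna12 cells. Each double knockout thus lay above its single knockout in every array, by 0.25 (interval -0.02 to 0.51, adjusted p 0.343) and by 0.22 (interval -0.04 to 0.49, adjusted p 1), and neither difference passed. The first became 0.13 without Gnaq/Gna11 replicate 2 and the second 0.13 without Gna12/Gna13 replicate 1. The second Btc probe set, 1421161_at, went the other way: it averaged 3.21 ± 0.104 in Gnaq/Gna11 cells and 3.44 ± 0.096 in Gna11 cells, and 3.15 ± 0.083 in Gna12/Gna13 cells and 3.27 ± 0.042 in Gna12 cells.

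Nrg1 had 1 probe set. It read 3.57, 3.71 and 3.35 in Gnaq/Gna11 cells, against 3.73, 3.83 and 3.91 in Gna11 cells. In Gna12/Gna13 cells it read 3.63, 3.59 and 3.49, against 3.66, 3.70 and 3.57 in Gna12 cells. The Gna11 arrays were above all other 9 arrays. The Gnaq/Gna11 minus Gna11 difference was -0.28 ± 0.0985 (interval -0.50 to -0.06) at p 0.016, but its adjusted p was 0.19, and without Gnaq/Gna11 replicate 3 the difference was -0.18. The Gna12 minus Gna11 difference was -0.18 (interval -0.39 to 0.04). No detection calls are among the values used here, so whether signals this low stood above background was not tested.

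Egfr, the receptor of all the ligands above but Nrg1, was covered by 7 probe sets. These did not all differ in 1 direction in either comparison of a double with a single knockout. The brightest, 1432647_at, read 6.74, 6.24 and 6.21 in Gnaq/Gna11 cells, against 6.67, 6.19 and 6.89 in Gna11 cells. It read 7.12, 7.48 and 6.10 in Gna12/Gna13 cells, against 6.33, 6.46 and 6.76 in Gna12 cells, so that the Gna12/Gna13 group held both the highest and the lowest of the 12 arrays. The differences were -0.19 (interval -0.91 to 0.54, adjusted p 0.834) for Gnaq/Gna11 minus Gna11 and 0.38 (interval -0.34 to 1.11, adjusted p 1) for Gna12/Gna13 minus Gna12. Single arrays moved both: the first ran from -0.38 without Gna11 replicate 2 to -0.03 without Gna11 replicate 3, and the second from 0.09 without Gna12/Gna13 replicate 2 to 0.78 without Gna12/Gna13 replicate 3. As folds the intervals run from 0.531 to 1.46 and from 0.788 to 2.16. Changes in the signal of this probe set within them were not resolved at this number of arrays. In the fit over all probe sets its standard error, 0.334, was the largest of the 7 Egfr probe sets. Those of the others lay between 0.102 and 0.197, so the width of these intervals is particular to this probe set.

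Of the 7 Egfr probe sets, 3 lay above the array median in all 12 arrays, 1435888_at did so in some arrays and the other 3 lay below in all. Across the 7, the Gnaq/Gna11 minus Gna11 difference ran from -0.54 to 0.09, with 5 negative. The lowest of these was 1435888_at, which read 5.04, 4.34 and 4.79 in Gnaq/Gna11 cells, against 5.36, 5.13 and 5.30 in Gna11 cells, without overlap. It read 5.28, 5.05 and 4.80 in Gna12/Gna13 cells, against 4.67, 5.12 and 4.95 in Gna12 cells. Its adjusted p was 0.261 over all probe sets. This probe set also had the only unadjusted p under 0.05 among the 19 for the difference of differences, at -0.67 with a p of 0.0349 and an adjusted p of 0.518. For Gna12 minus Gna11 all 7 differences were negative, between -0.35 and -0.06, and none passed.

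Erbb2, the receptor with no known ligand that pairs with the other family members, read 7.25, 6.84 and 7.30 in Gnaq/Gna11 cells, against 7.01, 8.31 and 7.01 in Gna11 cells. It read 7.57, 6.72 and 6.65 in Gna12/Gna13 cells, against 6.83, 6.86 and 7.21 in Gna12 cells. Gna11 replicate 2 was the highest of the 12 arrays and set the Gna11 mean of 7.44 ± 0.752, and the groups overlapped. The Gnaq/Gna11 minus Gna11 difference of -0.31 (interval -1.11 to 0.48, adjusted p 0.726) became 0.12 without that array. The Gna12/Gna13 minus Gna12 difference was 0.01 (interval -0.78 to 0.81). Gna11 replicate 2 was also the array with the lowest pan-leukocyte mean, 8.33, and 1 of the 6 with low Eif2s3y. Adjusted for the pan-leukocyte mean, the Gnaq/Gna11 minus Gna11 difference of Erbb2 was 0.60 (adjusted p 0.806), and adjusted for Eif2s3y it was -0.42 (adjusted p 0.643). The pan-leukocyte mean did not overlap between these groups, so the first fit could hardly separate it from genotype. Eif2s3y was low in every Gnaq/Gna11 array but, in Gna11 cells, only in replicate 2, so the second fit could separate it only in part.

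Erbb3, a receptor with an impaired kinase that recruits PI3-kinase, read 8.63, 8.82 and 8.71 in Gnaq/Gna11 cells, against 9.06, 8.75 and 9.24 in Gna11 cells. It read 9.58, 9.22 and 8.75 in Gna12/Gna13 cells, against 8.90, 9.11 and 9.16 in Gna12 cells. The Gnaq/Gna11 group had the lowest mean, 8.72 ± 0.096, and overlapped the Gna11 group at 9.02 ± 0.248. Their difference was -0.30 (interval -0.77 to 0.17, adjusted p 0.537), and that of Gna12/Gna13 minus Gna12 was 0.12 (interval -0.35 to 0.60, adjusted p 1). The first became -0.19 without Gna11 replicate 3, and the second ran from -0.07 without Gna12/Gna13 replicate 1 to 0.34 without Gna12/Gna13 replicate 3. The second Erbb3 probe set, 1452482_at, lay below the median in all 12 arrays, with means of 3.72 ± 0.110 in Gnaq/Gna11 cells and 3.77 ± 0.198 in Gna11 cells, and of 3.49 ± 0.154 in Gna12/Gna13 cells and 3.69 ± 0.143 in Gna12 cells.

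**Figure D2:**
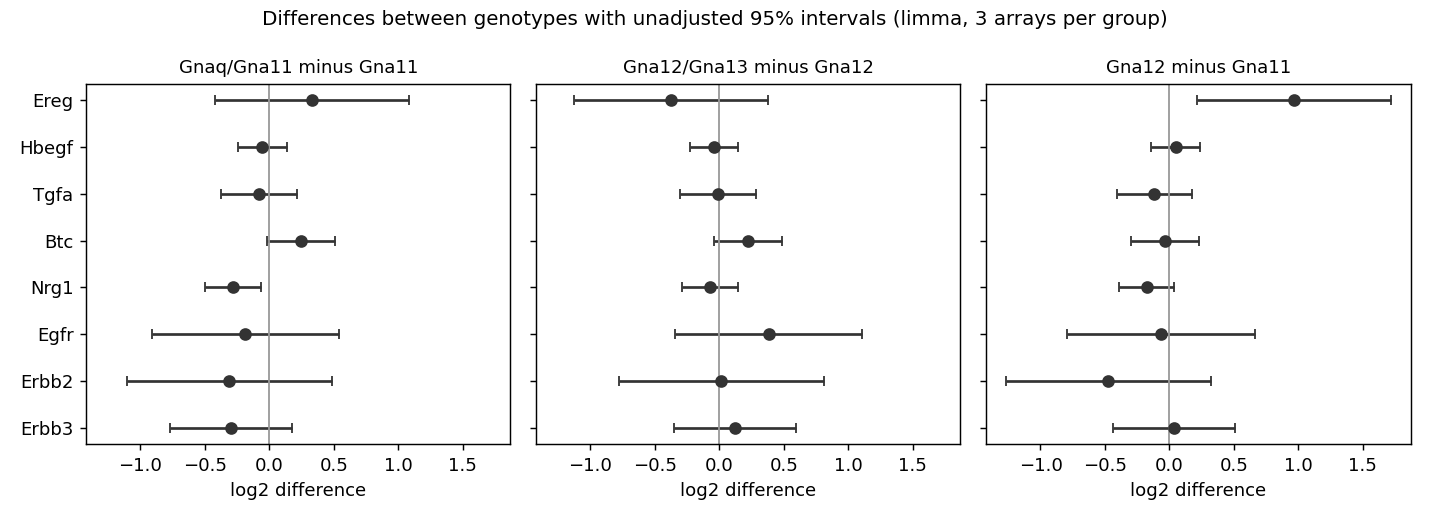
Log2 difference between genotypes for each measured member, as points with unadjusted 95% intervals from limma, with 1 panel per comparison (Gnaq/Gna11 minus Gna11, then Gna12/Gna13 minus Gna12, then Gna12 minus Gna11). Hbegf has the narrowest intervals, Ereg, Egfr and Erbb2 have wide ones, and Nrg1 in the first panel and Ereg in the third are the only members whose intervals exclude 0, with adjusted p-values of 0.19 and 0.144.

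Ordered by group mean, most neighbouring genotypes of a gene overlapped in their arrays. The exceptions were Tgfa, where Gnaq/Gna11 cells stood below Gna11 cells, Btc, where Gna12/Gna13 cells stood above Gna11 cells, and Nrg1, where Gna12 cells stood below Gna11 cells. How often neighbouring groups separate among all genes was not counted, so these separations are not shown to be particular to the family. The order itself differed between genes. Gnaq/Gna11 cells had the lowest mean of Hbegf, Nrg1, Egfr and Erbb3 and the highest of Btc, and Gna12 cells had the highest mean of Hbegf and Ereg and the lowest of Btc and Erbb2.

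Over all 19 probe sets, 9 lay above the array median in all 12 arrays, 3 in some and 7 in none. For Gnaq/Gna11 against Gna11, 0 of 19 passed where 0.759% of all probe sets did. The arrays of these groups did not overlap for 6 of the 19, or 31.6%, where 17.3% of all probe sets did not. In 5 of the 6 every Gnaq/Gna11 array was lower (9.57% of all probe sets), namely for 1 probe set each of Tgfa, Btc and Nrg1 and 2 of Egfr, and in 1, the other Btc probe set, every array was higher (7.7% of all). Most of the 6 had low signals. Both Btc probe sets, that of Nrg1 and 1424932_at of Egfr lay below the array median in all 12 arrays. Egfr probe set 1435888_at reached it in 5. For Gna12/Gna13 against Gna12 it was 1 of 19, or 5.26%, where 10.8% of all did not overlap. For Gna12 against Gna11 it was 5 of 19, or 26.3%, where 23.4% of all did not overlap. Of these, 4 were lower (14.4% of all) and 1, Ereg, was higher (8.97% of all). Probe sets of 1 gene share its transcripts, so these counts are not of independent measurements. Both comparisons use the same Gna11 arrays.

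**Figure D3:**
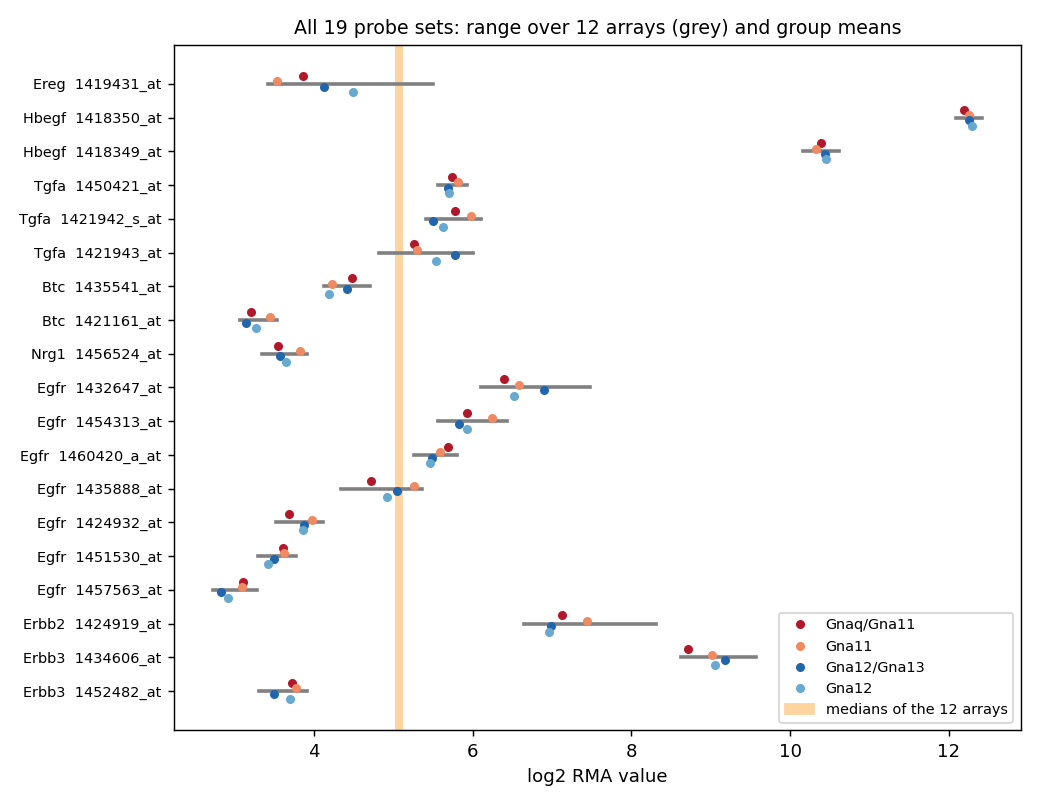
Range over the 12 arrays (grey line) and mean of each genotype (points) in log2 RMA values for all 19 probe sets of the family, with the band of array medians. Rows are to be read one at a time, since levels of different probe sets are not comparable. Probe sets of Egfr, Erbb3 and Hbegf sit at different heights although each row set belongs to 1 gene, and the 2 Btc rows order the genotypes differently.

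The pattern of Hbegf over the 12 arrays was most like those of Clasp1 (Pearson's r 0.907), Vasn (0.901) and Itga3 (0.896), out of 11441 genes ranked. Erbb3 was most like Fbxw11 (0.916), Fam83h (0.897) and Ccdc134 (0.875). All points share their arrays, and these likenesses are descriptions chosen as the highest among many genes. Ereg, Areg and Btc follow one another directly among the protein-coding genes of the mouse genome (RefSeq, assembly GRCm38.p6), with Epgn next to Ereg. The measured neighbours Ereg and Btc did not share an order of genotypes.

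Beyond the members, 67 of 72 listed genes of the ErbB pathway were measured. For Gnaq/Gna11 against Gna11, 1 rose and 1 fell, 2.99% of those measured, where 1.84% of all genes passed. Both belong to the sheddases and their partners. Adam15, a membrane metalloprotease, rose: it read 9.19, 8.96 and 9.23 in Gnaq/Gna11 cells, against 8.29, 8.05 and 8.44 in Gna11 cells. The groups did not overlap, and the difference was 0.87 ± 0.172 with an adjusted p of 0.034. Rhbdf1, an inactive rhomboid that helps Adam17 mature, fell: it read 10.40, 10.28 and 10.48 in Gnaq/Gna11 cells, against 10.96, 11.02 and 10.87 in Gna11 cells, without overlap, by -0.56 ± 0.121 with an adjusted p of 0.0433. Both calls lie close to the threshold. The adjusted p of Adam15 exceeded it without any 1 array of the comparison except Gna11 replicate 3 (0.0651 to 0.114 without the others), and that of Rhbdf1 without each of the 6 arrays in turn (0.0555 to 0.138). Adjusted for the pan-leukocyte mean, the differences were 0.63 and -0.28, and adjusted for Eif2s3y they were 0.91 and -0.52 (adjusted p 0.0578 and 0.0982), and neither gene passed in either fit. The pan-leukocyte mean did not overlap between these groups (9.35 to 9.48 against 8.33 to 8.98), so the first fit could hardly separate it from genotype. Eif2s3y was low in every Gnaq/Gna11 array but, in Gna11 cells, only in replicate 2. The second fit could therefore separate it from genotype only in part.

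Adam17, the main sheddase of Hbegf, Tgfa, Areg and Ereg, did not pass in this comparison. Named for that role after its values were seen, it read 9.06, 8.60 and 8.71 in Gnaq/Gna11 cells, against 8.12, 7.04 and 8.10 in Gna11 cells, a difference of 1.04 ± 0.278 with an adjusted p of 0.0917. Over the 10 sheddases and partners, the median difference was 0.80, where that of all genes was -0.03, and 7 of 10 were positive. The macrophage marker mean was 10.28 ± 0.055 in Gnaq/Gna11 cells and 8.93 ± 0.472 in Gna11 cells, and 4 of 12 macrophage markers and 1 of 18 pan-leukocyte markers rose in the same comparison. The dendritic marker mean was 6.86 ± 0.111 in Gnaq/Gna11 cells and 5.26 ± 0.202 in Gna11 cells. Of 7 dendritic markers 3 rose, Ccl22, Ccr7 and Fscn1, by 3.01, 3.19 and 4.40. Zbtb46 and Flt3 differed by 0.45 and 0.30, Cd209a and Xcr1 by -0.05 and -0.06, and none of these passed. The fibroblast marker mean was 6.74 ± 0.152 in Gnaq/Gna11 cells and 6.07 ± 0.163 in Gna11 cells. Of 8 fibroblast markers 5 were positive and 2 rose, Col3a1 by 2.10 and Col1a1 by 1.57. Col1a2 differed by 2.07 without passing. Pdgfra, Thy1 and Lum differed by -0.37, -0.22 and -0.15, and none of them passed. The endothelial marker mean was 6.30 ± 0.156 in Gnaq/Gna11 cells and 6.94 ± 0.419 in Gna11 cells, with 0 of 6 markers positive and none passing. Among epithelial markers, 8 of 11 for type II cells (median 0.22) and 0 of 9 general ones (median -0.09) were positive. For type I cells it was 1 of 10 (median -0.19) and for airway cells 2 of 8 (median -0.19). None of the epithelial markers passed. Adjusted for the Gapdh 3' minus 5' signal, which also did not overlap between these groups, Adam15 and Rhbdf1 differed by 0.80 and -0.39 and did not pass. That fit likewise could hardly separate the signal from genotype. The part of dendritic cells, fibroblasts, endothelial cells and the kinds of epithelial cell in the sheddase values was not tested.

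For Gna12/Gna13 against Gna12, 0 of 67 pathway genes passed and 3 had an unadjusted p under 0.05, where 0% and 4.51% of all genes did. The smallest p-values were those of Stat3, a transcription factor activated by many growth factor receptors, at -0.47 ± 0.159 (p 0.0122, adjusted p 1) and of Egr1, an immediate early target of ERK signalling, at -0.39 ± 0.174 (p 0.0447, adjusted p 1). For the difference of differences, 0 of 67 passed, where 0.0715% of all genes did, so the 0 does not set these genes apart. An unadjusted p under 0.05 was reached by 12, or 17.9%, where 10.8% of all genes reached it. The smallest p-values there were those of Adam15 at 1.13 ± 0.244 (adjusted p 0.106) and Spred1, an inhibitor of RAS signalling, at 1.04 ± 0.268 (adjusted p 0.172), so no pathway gene was shown to respond differently to the loss of Gnaq and of Gna13.

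For Gna12 against Gna11, 4 of 67 pathway genes rose and none fell, 5.97% where 2.82% of all genes passed. Cd44, an adhesion receptor that can hold Hbegf and metalloproteases at the cell surface, read 9.78, 10.53 and 10.23 in Gna12 cells, against 7.44, 7.52 and 8.65 in Gna11 cells, a difference of 2.31 ± 0.298 with an adjusted p of 0.00505. Adam8, a metalloprotease best known from leukocytes, read 6.28, 6.68 and 6.59 in Gna12 cells, against 5.03, 5.47 and 5.19 in Gna11 cells, a difference of 1.29 ± 0.234 with an adjusted p of 0.0206. The groups of both genes did not overlap.

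The docking protein Gab2 had a difference of 1.43 ± 0.287 (adjusted p 0.0296), and Ets2, a transcription factor phosphorylated by ERK, one of 1.11 ± 0.191 (adjusted p 0.0174). Gab2 averaged 7.52 ± 0.31 in Gna12 cells and 6.09 ± 0.44 in Gna11 cells, and Ets2 10.51 ± 0.01 in Gna12 cells and 9.40 ± 0.39 in Gna11 cells. In the same comparison 8 of 18 pan-leukocyte markers rose and none fell, 18 of 18 were positive and their median difference was 1.33. Type II markers had a median difference of -0.38, with 2 of 11 positive and 1 that fell. The Gapdh 3' minus 5' signal was 3.00 ± 0.298 in Gna12 cells and 3.70 ± 0.294 in Gna11 cells, without overlap. Adjusted for the pan-leukocyte mean, the differences of Cd44, Adam8, Gab2 and Ets2 were 1.53, 1.17, 0.39 and 0.77, and none passed. Adjusted for the Gapdh signal they were 1.56, 0.79, 0.51 and 0.97 in the same order, and none passed. The pan-leukocyte mean did not overlap between these groups either (9.53 to 10.10 against 8.33 to 8.98). Both fits could therefore hardly separate the covariate from genotype, and the lost calls are not a result about these genes in particular. Leaving out 1 array ended the call of Adam8 (Gna11 replicate 1, adjusted p 0.064, or Gna12 replicate 2, 0.0957), of Ets2 (Gna12 replicate 1, 0.0577, or replicate 2, 0.0735) and of Gab2 (Gna11 replicates 1 or 2, 0.0819 and 0.067, or Gna12 replicates 1 or 2, 0.0852 and 0.123), and never that of Cd44.

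**Figure D4:**
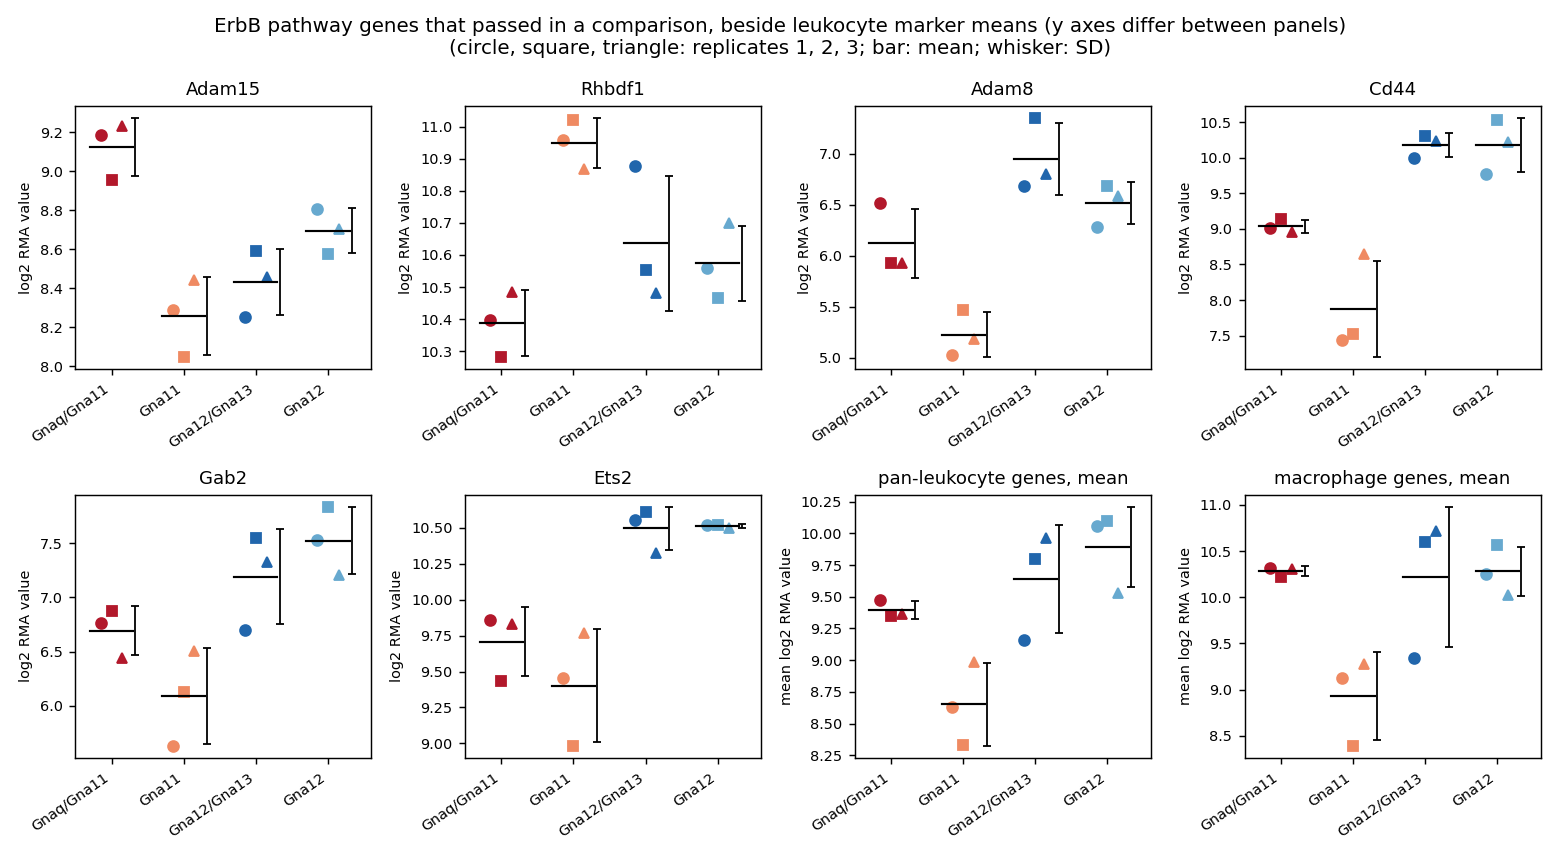
Log2 RMA values per array of the 6 ErbB pathway genes that passed in a comparison, and the mean of the pan-leukocyte and macrophage markers, in the 4 genotypes (symbols are arrays, bars group means, whiskers SD, n = 3). Cd44 and Adam8 are lowest in Gna11 cells, as are both marker means, while Rhbdf1 has its highest mean there.

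By role, the related family genes (Egf, Epgn, Nrg2, Nrg3, Nrg4 and Erbb4) held no gene that passed in any of the 4 contrasts. Among 20 measured adaptors, kinases and effectors, 0 passed for Gnaq/Gna11 against Gna11 and 1, Gab2, for Gna12 against Gna11. None of 19 inhibitors and feedback genes passed in any contrast. Of 12 targets of the ERK pathway, 0 passed for Gnaq/Gna11 against Gna11, with 3 positive and a median difference of -0.18, where the median of all genes was -0.03. For Gna12 against Gna11, 1 of the 12, Ets2, passed, and their median was -0.01, where that of all genes was -0.06.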

How the data were processed

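The deposited values were RMA expression values per probe set, per the submitters' processing notes, and are read here as log2 because of RMA's usual output and their range of 2.13 to 14.1. The sources used here do not give the base, the software, its version, the annotation or the genome build. No 2 arrays were identical, and the lowest within-group correlation was 0.963. Of 45037 non-control probe sets, 34945 had 1 gene in the platform annotation, 932 had several and 9160 had none. RefSeq (assembly GRCm38.p6) updated the symbols of 34741, and 204 kept the platform's. Each gene was read at its probe set with the highest mean.

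All 12 arrays entered 1 model of group means in limma 3.58.1 in R 4.3.3 (intensity trend, two-sided, Benjamini-Hochberg over 18193 genes or 45037 probe sets, called at an adjusted p under 0.05). It was tried on simulated data in which changed genes were shifted further than any member differed here. That trial therefore does not bear on how well differences of the size reported for members are found. The members and lists were chosen with earlier results of these data known. Of 177 list entries, 168 were measured. Named genes were all members, called pathway genes up to 4 per contrast by size (otherwise the 2 smallest p-values), and the 3 genes most like Hbegf and Erbb3, the ligand and receptor of highest mean. Alternatives changed the probe sets used, the filter, the arrays, weights, trend and centring, and added the pan-leukocyte mean, Gapdh 3' minus 5' signal, Eif2s3y or replicate number. The number of arrays limits the precision. Promoter, probe and protein sequences are not printed because no value here bears on them.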

Additional observations from a re-analysis of the deposited data

How the results depend on the processing

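No member passed in any of the 95 recomputed counts, and of 572 recomputed member differences 519 kept their direction, 53 turned and 0 passed; the largest value that turned was 0.475 in size. Causes were not tested. With all probe sets of a gene averaged, the turned values were 0.0063 (Hbegf, Gnaq/Gna11 minus Gna11), 0.0365 (Tgfa) and -0.0388 (Erbb3) for Gna12/Gna13 minus Gna12, 0.0324 (Hbegf) and -0.0441 (Btc) for the difference of differences, and -0.0229 (Erbb3, Gna12 minus Gna11). Adjusted for the pan-leukocyte mean they were 0.0205 (Hbegf) and 0.60 (Erbb2) for Gnaq/Gna11 minus Gna11, 0.0062 (Tgfa) and -0.30 (Erbb2) for Gna12/Gna13 minus Gna12, 0.0879 (Hbegf) and 0.90 (Erbb2) for the difference of differences, and 0.0846 (Btc), 0.15 (Egfr) and 1.05 (Erbb2) for Gna12 minus Gna11. With the Gapdh 3' minus 5' difference they were 0.0866 (Hbegf, Gnaq/Gna11 minus Gna11), 0.0203 (Tgfa) and -0.0135 (Erbb2) for Gna12/Gna13 minus Gna12, 0.17 (Hbegf, difference of differences) and 0.0457 (Btc, Gna12 minus Gna11). With Eif2s3y, chosen after seeing the data, Hbegf turned to 0.0446 for Gnaq/Gna11 minus Gna11 and 0.0892 for the difference of differences. Array weights gave 0.0089 (Tgfa) and -0.0003 (Erbb2) for Gna12/Gna13 minus Gna12 and -0.0411 (Erbb3, Gna12 minus Gna11), and centring gave 0.0080 (Tgfa). Leaving out 1 array gave ranges across 0. For Gnaq/Gna11 minus Gna11 this held for Erbb2 (-0.53 to 0.12). For Gna12/Gna13 minus Gna12 it held for Ereg (-0.71 to 0.13), Hbegf (-0.10 to 0.019), Tgfa (-0.0801 to 0.11), Erbb2 (-0.28 to 0.18) and Erbb3 (-0.0737 to 0.34). For the difference of differences it held for Hbegf (-0.0918 to 0.049), Btc (-0.10 to 0.11) and Erbb2 (-0.54 to 0.11), and for Gna12 minus Gna11 for Hbegf (-0.0317 to 0.11), Btc (-0.0642 to 0.0014), Egfr (-0.26 to 0.0884) and Erbb3 (-0.10 to 0.15). The 2 pathway genes called for Gnaq/Gna11 against Gna11 became 1 in the probe-set fit, without the trend, with centring and with the replicate block, and 0 with array weights, each of the 3 covariates or only the 6 arrays, and 0 to 2 without 1 array. The 4 called for Gna12 against Gna11 became 7 among genes above the median level and with Eif2s3y, 0 with the leukocyte or Gapdh covariate or only the 6 arrays, and 1 to 7 without 1 array. The leukocyte and Gapdh values did not overlap between the groups of either comparison, so those fits could hardly separate them from genotype. Eif2s3y was low in every Gnaq/Gna11 array but, in Gna11 cells, only in replicate 2. The Eif2s3y fit could thus separate it from genotype only in part for Gnaq/Gna11 against Gna11. Of all genes, 335 were called for Gnaq/Gna11 against Gna11, 13 for the difference of differences, 513 for Gna12 against Gna11 and 1246 by the F test; over the alternatives these ran from 3 to 395, 0 to 40, 0 to 736 and 329 to 1629. For Gna12/Gna13 against Gna12 they ran from 0 to 3. Deviations from group means correlated at -0.04 to 0.20 in 18 pairs of same-numbered arrays, 6 above 0.1, and at -0.22 to 0.13 in 36 other pairs, 1 above 0.1. The 6 joined replicates 2, and replicates 3, of all groups but Gnaq/Gna11. The rule for pairing (every pair above 0.1) was not met, so the numbers were not used as pairs. The fit with the replicate block called 309 genes for Gnaq/Gna11 against Gna11 and 0 members.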
